A study of Mus musculus with 19 samples.

Results

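Amino acid transporters are membrane proteins of several solute carrier (SLC) families that move amino acids into, out of and within cells. The genes described here are those whose name on the array belongs to the families Slc1a, Slc3a, Slc6a, Slc7a, Slc36a, Slc38a or Slc43a. The array held 120 probes for 66 such genes, and 57 probes of 37 genes were well above background on 4 or more of 19 arrays, out of 20666 genes that passed the same filter. Of these 37, 36 were transporter genes or their partner chains and 1 was Slc7a6os, a neighbouring gene on the opposite strand that the naming rule also takes in.

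RNA came from sorted luminal cells (CD24+CD29lo) of the mammary gland, and each array held the RNA of 1 mouse. C451A-ERα mice carry a germline knock-in that replaces the cysteine at which estrogen receptor α is palmitoylated, the modification that anchors a fraction of the receptor at the cell membrane. WT mice were their littermate controls. All mice were females of 8 weeks on a C57Bl/6N background, and all had been ovariectomised, at 24 days of age per the labels. After 10 days each received a pellet for 21 days. The E2+Pg pellets held 0.01 mg estradiol (E2) and 1.5 mg progesterone (Pg), released over 60 days, and the E2 pellets held the same amount of estradiol alone. The groups were C451A-ERα E2+Pg (5 mice), WT E2+Pg (5 mice), C451A-ERα E2 (5 mice) and WT E2 (4 mice). The knock-in is carried by every cell of the body, not by luminal cells alone.

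Luminal identity was checked on marker genes. All 7 pan-luminal markers passed the filter, and the log2 of their summed signal was 18.92 to 19.63 over the 19 mice. The 9 basal and myoepithelial markers also passed, with summed levels of 15.04 to 15.85. The lists of hormone-sensing and of epidermal markers moved with the groups. The 10 markers of hormone-sensing luminal cells had a median log2 change of −0.93 with E2+Pg against E2, with 8 of them called lower and 1 higher. The 7 measurable markers of epidermis averaged 0.42 to 1.42 above their own mean in WT E2 mice and −0.92 to 0.45 in the other groups. The 19 arrays lay on 5 slides. In an estimate of how far each array strayed from its group, mice L4 and L27 (C451A-ERα E2) and L18 (C451A-ERα E2+Pg) had the lowest weights, 0.247, 0.292 and 0.302, against 0.498 to 2.92 in the other mice.

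As background, many SLC7 proteins work as light chains that pair with a heavy chain of the SLC3 family. The heavy chain carries the pair to the membrane, and the light chain decides which amino acids pass. SLC1, SLC6 and SLC38 carriers use the sodium gradient to load cells, SLC36 carriers use protons, and SLC43 carriers are facilitative. In the lactating gland these carriers supply amino acids for milk protein, and transcripts of several of them respond to amino acid shortage through ATF4, a transcription factor that binds the C/EBP-ATF response element.

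The results turn on a few probes, and the first 30 of their 60 bases are shown to fix what was measured. The first 3 belong to the light chain and cationic carrier genes that moved with progesterone, and the last 3 to Slc3a2, whose probes disagreed. The coordinates are those of mm9 in the array files, and the region of the second Slc3a2 probe is longer than the probe because the probe's bases are split over it.
Slc7a6 (chr8:108721796-108721855): gacagatgagcaacttcatgagtcataata
Slc7a8 (chr14:55341137-55341196): tatttcttttggattttttaatgtatggcg
Slc7a2 (chr8:42003321-42003380): gaacacaattatctaaaacttcgagctaaa
Slc3a2, probe used (chr19:8782189-8782248): gagggcttgctgttacagttcccctttgtg
Slc3a2, second probe (chr19:8784238-8787243): ttctacaaagtgccaagaaaaagagaagct
Slc3a2, last probe (chr19:8781855-8781914): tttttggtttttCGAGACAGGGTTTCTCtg
The capitals in the last Slc3a2 probe mark a run of 16 bases that 4 other probes of the 56605 on the array also held. These letters belong to the B1 family of short interspersed repeats.

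The transporter genes that were called differed between E2+Pg and E2. Averaged over the genotypes, 2 of 37 members were called in E2+Pg against E2, with an adjusted p below 0.05 and more than a 1.5-fold change, against 3.83% of all genes tested. Slc7a6 was higher and Slc7a2 lower. At an unadjusted p under 0.05, 12 members differed, 6 in each direction, a share of 32.4% against 21.0% of all genes. The members' median log2 change was 0.06, against 0.01 for all genes.

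Slc7a6 encodes y+LAT2, a light chain that pairs with Slc3a2 and exchanges cationic for neutral amino acids. Its log2 signal was 7.62, 8.34, 8.24, 7.81 and 7.96 in C451A-ERα E2+Pg mice, against 8.22, 7.12, 7.62, 7.02 and 7.35 in C451A-ERα E2 mice. It was 8.67, 8.41, 8.49, 8.39 and 8.13 in WT E2+Pg mice, against 7.71, 7.74, 7.41 and 7.54 in WT E2 mice. Every WT mouse on E2+Pg was above every WT mouse on E2, whereas in C451A-ERα mice the groups overlapped through L4, which was the highest of the E2 mice. The mean over genotypes was higher by 0.67 ± 0.14 (log2, SE), or 1.6-fold, with an adjusted p of 0.00693 by limma with Benjamini-Hochberg adjustment. In WT alone the log2 change was 0.82 (adjusted p = 0.0565; exact permutation test, two-sided, p = 0.00794), and in C451A-ERα alone it was 0.53 (adjusted p = 0.148). The difference between these changes was −0.29 ± 0.29 (adjusted p = 0.611). Averaged over the genotypes within a slide, Slc7a6 was higher with E2+Pg on all 4 slides that held all groups, by 0.18 to 0.95. On the slide of L56 and L4 the C451A-ERα pair went the other way, at 7.62 on E2+Pg against 8.22 on E2. A second probe of Slc7a6 gave 0.48 for the mean change (adjusted p = 0.0501), and with the mean of both probes in place of the brighter one the change was 0.58 (adjusted p = 0.0124), under the 1.5-fold limit, so that the call was lost. Slc7a6os, whose gene lies beside it, differed 1.03-fold in that mean (log2 −0.05).

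Slc7a8 encodes LAT2, a light chain for neutral amino acids that also pairs with Slc3a2. The signal on the log2 scale was 6.47, 7.18, 6.55, 6.63 and 6.86 in C451A-ERα E2+Pg mice, against 6.35, 6.62, 6.45, 6.25 and 6.19 in C451A-ERα E2 mice. It was 6.36, 6.56, 6.81, 6.58 and 6.80 in WT E2+Pg mice, against 5.87, 6.13, 6.32 and 5.81 in WT E2 mice. The WT groups did not overlap, and the C451A-ERα groups did. The mean over genotypes was 0.48 ± 0.11 (adjusted p = 0.0101), with a 1.39-fold difference that stayed under the 1.5-fold limit of a call. The values in WT were 0.59 (adjusted p = 0.0657; exact permutation p = 0.0159) and in C451A-ERα 0.37 (adjusted p = 0.184).

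Slc7a2 encodes CAT2, a carrier of cationic amino acids such as arginine. Signal (log2) was 8.15, 7.68, 7.34, 7.79 and 8.20 in C451A-ERα E2+Pg mice, against 8.45, 9.57, 9.04, 9.24 and 8.86 in C451A-ERα E2 mice. The 2 groups did not overlap. It was 7.57, 7.10, 7.31, 7.67 and 7.69 in WT E2+Pg mice, against 7.81, 7.10, 9.34 and 7.59 in WT E2 mice, where L72 alone stood near the C451A-ERα E2 level. Slc7a2 was the 1 of 37 members called in E2+Pg against E2 in C451A-ERα mice, where 2.46% of all genes were called. It was lower by −1.20 ± 0.32 (log2, SE), or 2.29-fold, with an adjusted p of 0.0482 and an exact permutation p of 0.00794, the smallest that 5 mice against 5 allow. It was lower on 5 of 5 slides, by −1.89 to −0.30. The call lost its threshold when 16 of the 19 mice were left out singly (adjusted p up to 0.151), with slide as a block (0.0671), and without L4, L27 and L18 (0.137), while the log2 change stayed between −1.35 and −1.06. It was also lost with the processed signal, with probes in place of genes (0.0543) and with no filter on dim probes. In WT mice the change was −0.49 ± 0.34 (adjusted p = 0.463), and the mean over genotypes was −0.84 ± 0.23 (adjusted p = 0.0313). That mean missed the threshold without 6 of the 19 mice (adjusted p up to 0.0641) and with slide as a block (0.0568).

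**Figure D1:**
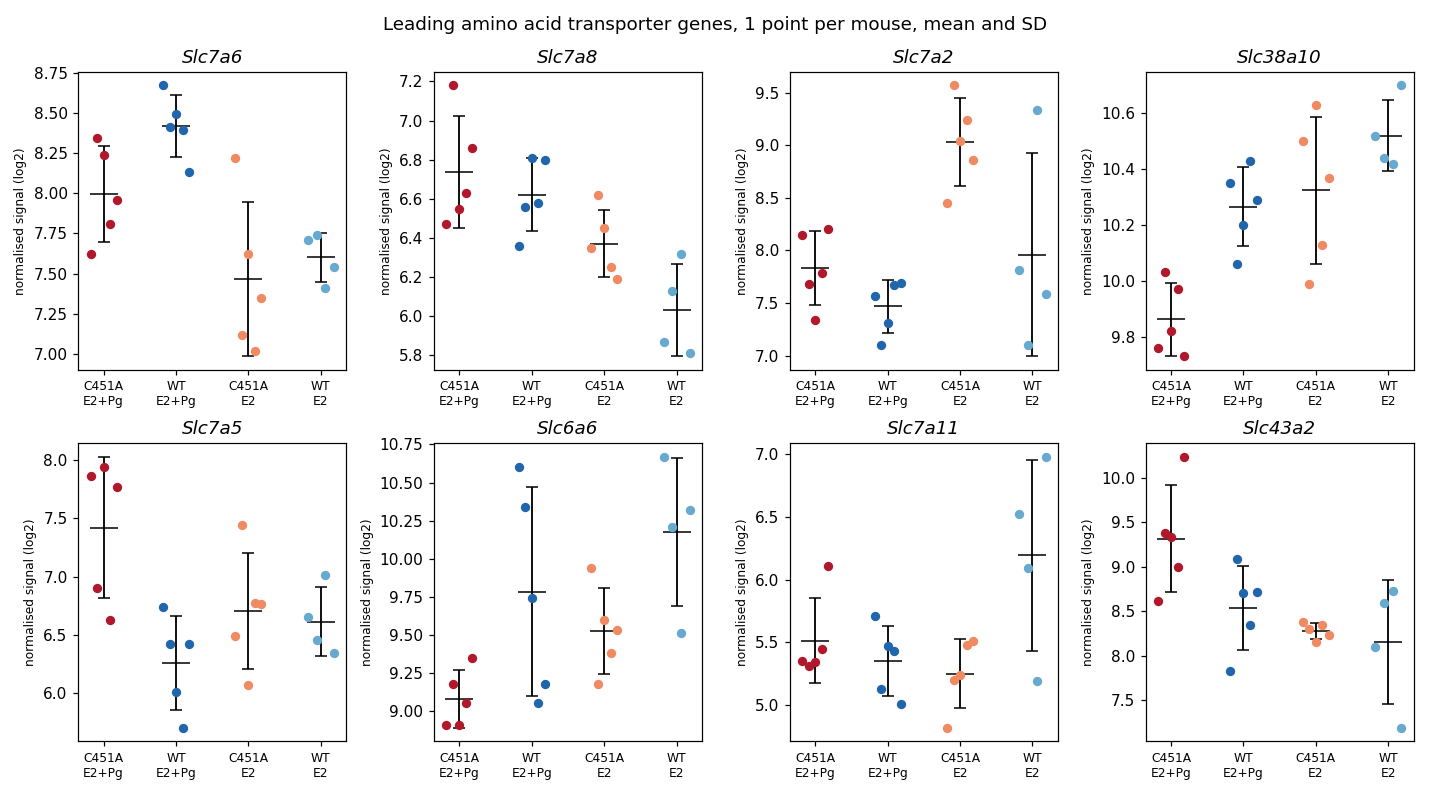
Normalised log2 signal (y axis, a scale of its own for each gene) of 8 transporter genes in the C451A-ERα E2+Pg, WT E2+Pg, C451A-ERα E2 and WT E2 groups (x axis). Each point is 1 mouse, and the bars are the group mean and SD. Slc7a6 and Slc7a8 sit higher in E2+Pg groups, Slc7a2 sits highest in C451A-ERα E2 mice and in 1 WT E2 mouse (9.34), and Slc7a11 is high in 3 of 4 WT E2 mice.

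The level of Slc7a2 followed that of the hormone-sensing luminal markers over the groups. The markers' mean deviation was −0.82 to −0.01 in C451A-ERα E2+Pg mice and −0.56 to 0.01 in WT E2+Pg mice, against 0.45 to 0.70 in C451A-ERα E2 mice and −0.10 to 0.64 in WT E2 mice. The WT E2 mouse at 0.64 was L72. In these bulk samples, fewer hormone-sensing cells and less Slc7a2 RNA per cell cannot be told apart, and the part of the markers in the result was not tested. Slc7a4, a relative of the cationic carriers, had a similar order. It averaged 10.16 ± 0.51 in C451A-ERα E2+Pg mice and 9.56 ± 0.52 in WT E2+Pg mice, against 10.81 ± 0.29 in C451A-ERα E2 mice and 10.16 ± 0.61 in WT E2 mice (SD). Its mean progesterone change was −0.62 ± 0.21 (adjusted p = 0.0851), not past the threshold.

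Slc38a10, of the sodium-coupled neutral carrier family, passed the adjusted p but not the fold limit. It read 9.76, 10.03, 9.82, 9.97 and 9.73 in C451A-ERα E2+Pg mice, against 10.50, 9.99, 10.63, 10.13 and 10.37 in C451A-ERα E2 mice. It was 10.35, 10.06, 10.20, 10.43 and 10.29 in WT E2+Pg mice, against 10.52, 10.44, 10.42 and 10.70 in WT E2 mice. The mean progesterone change was −0.36 ± 0.09 (adjusted p = 0.0204). It was also lower in C451A-ERα than WT mice on E2+Pg, by −0.41 ± 0.12, without overlap between the groups (exact permutation p = 0.00794, adjusted p = 0.157). Of its 3 passing probes, 1 went the other way in the progesterone mean, at 0.11.

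Slc43a2 encodes LAT4, a facilitative carrier of branched-chain and other large neutral amino acids. The log2 values were 8.62, 9.38, 9.34, 9.0 and 10.24 in C451A-ERα E2+Pg mice, against 8.38, 8.30, 8.15, 8.34 and 8.23 in C451A-ERα E2 mice. The groups did not overlap, and the E2 mice spanned only 8.15 to 8.38. The difference was 1.03 ± 0.30, or 2.05-fold, with an adjusted p of 0.0690 that missed the threshold. In WT mice it was 0.38 ± 0.32 (adjusted p = 0.553). A second probe gave 0.45 in C451A-ERα mice (adjusted p = 0.328 among probes). Its groups overlapped, with L58 on E2 at 6.62 and L56 on E2+Pg at 6.31. In WT mice the second probe had the opposite sign, at −0.13.

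In WT mice, E2+Pg against E2 gave no call among the 37 members, where 1.33% of all genes were called, and 6 members, 16.2%, had an unadjusted p under 0.05 against 16.3% of all genes. Slc7a6 and Slc7a8 led, and Slc38a1 followed. Slc38a1 encodes SNAT1, a sodium-coupled carrier of glutamine. It measured 11.96, 11.47, 11.63, 11.52 and 11.72 in WT E2+Pg mice, against 11.99, 11.81, 12.32 and 12.39 in WT E2 mice, a difference of −0.47 ± 0.15 (adjusted p = 0.123). In C451A-ERα mice the corresponding share at an unadjusted p under 0.05 was 14 of 37 (37.8%), 8 higher and 6 lower, against 18.4% of all genes. Slc36a1, a proton-coupled carrier of lysosomes and the cell surface, was among those 6. It read 5.79, 5.81, 5.57, 5.94 and 5.64 in C451A-ERα E2+Pg mice, against 6.12, 6.10, 6.73, 5.95 and 6.39 in C451A-ERα E2 mice, with no overlap (−0.51 ± 0.15, adjusted p = 0.0743). Its second probe had a sign opposite to it in 4 of 7 comparisons.

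**Figure D2:**
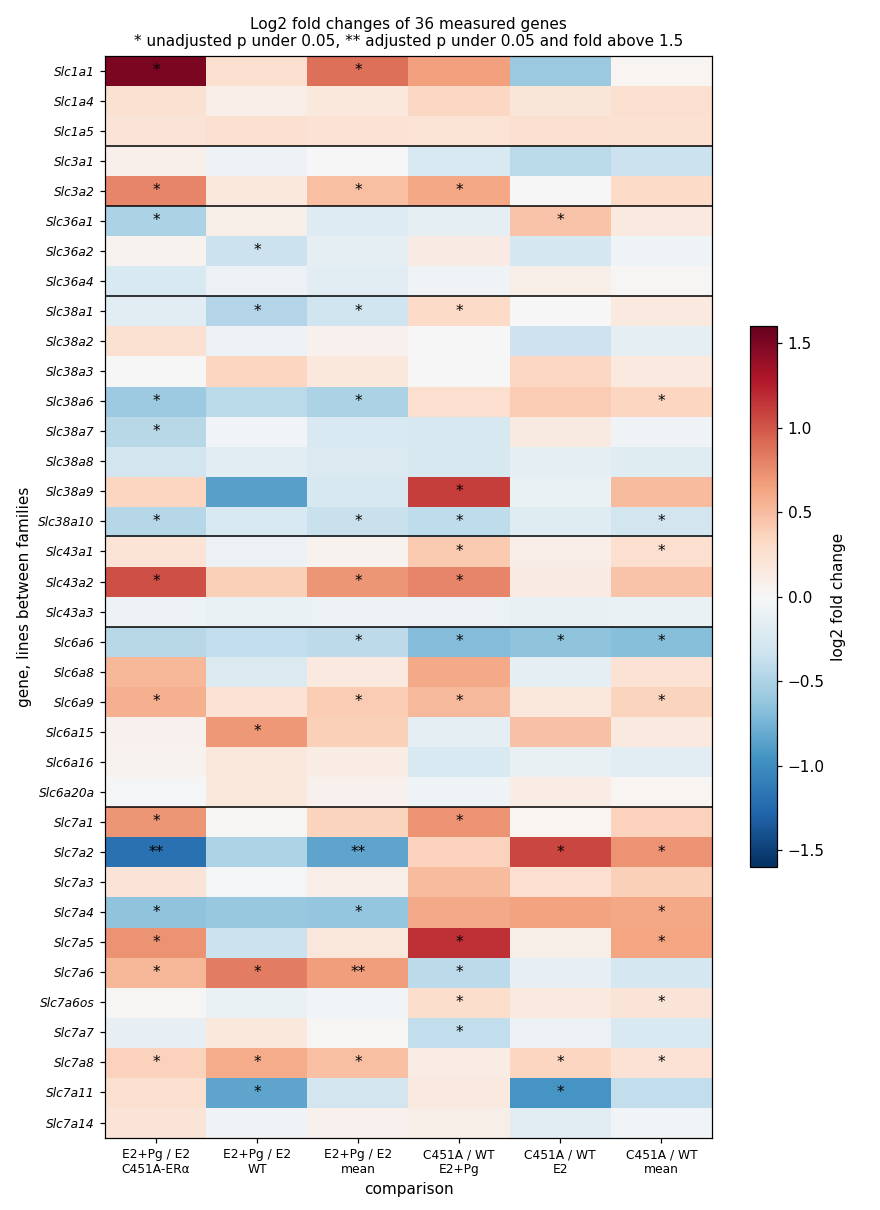
Log2 fold changes (colour) of 36 of the 37 measured genes (rows, grouped by family) for E2+Pg over E2 and for C451A-ERα over WT (columns). A single asterisk marks an unadjusted p under 0.05, and a pair marks a called gene. The pairs fall on Slc7a2 (in C451A-ERα and in the mean) and Slc7a6 (in the mean).

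No member was called between genotypes. Under E2+Pg, C451A-ERα against WT gave 0 of 37 members by limma, where 0.00484% of all genes were called, although 13 members (35.1%) had an unadjusted p under 0.05, 9 higher and 4 lower, against 18.3% of all genes. The members' median log2 change was 0.13, against −0.03 for all genes. Under E2 the count was 0 of 37 against 0.0290% of all genes, and 5 members (13.5%) had an unadjusted p under 0.05 against 13.6%. In the mean of both treatments it was 0 of 37 against 2.29%, with 10 members at an unadjusted p under 0.05, 8 higher and 2 lower, against 18.3% of all genes.

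Slc7a5 encodes LAT1, the light chain that pairs with Slc3a2 to bring in large neutral amino acids such as leucine. Its log2 signal was 7.87, 6.90, 7.94, 6.63 and 7.77 in C451A-ERα E2+Pg mice, against 6.74, 6.42, 6.01, 5.70 and 6.42 in WT E2+Pg mice. Only C451A-ERα mouse L53, at 6.63, fell within the WT range. The difference was 1.17 ± 0.28, or 2.24-fold, higher in the C451A-ERα mouse on 5 of 5 slides (exact permutation p = 0.0159), and the adjusted p of 0.110 missed the threshold. Under E2, Slc7a5 read 6.49, 7.44, 6.07, 6.77 and 6.76 in C451A-ERα mice, against 6.65, 6.45, 7.01 and 6.34 in WT mice, a difference of 0.09 ± 0.30. The difference between the genotype differences was 1.07 ± 0.41 (adjusted p = 0.471).

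Slc3a2 encodes 4F2hc (CD98), the heavy chain shared by Slc7a5, Slc7a6, Slc7a7, Slc7a8 and Slc7a11. Its log2 signal was 13.85, 13.09, 14.28, 13.38 and 14.52 in C451A-ERα E2+Pg mice, against 13.10, 13.33, 13.17, 13.17 and 13.27 in WT E2+Pg mice. The WT values were tight (SD 0.09), and 4 of the 5 C451A-ERα mice were above them all, L18 below. The difference was 0.62 ± 0.24 (adjusted p = 0.216). The second probe gave 0.44 for this difference and the last probe −0.27, so the direction rests on which probe is read. The plot of the probes of 1 gene shows that the first and second probes moved together over mice while the last probe did not. The 4 other probes that hold the 16-base run had a median log2 difference of 0.82 in the same comparison, and none was negative. Slc3a1, the other heavy chain, which serves the kidney and gut carrier Slc7a9 in the main, was well above background on 12 arrays and differed by −0.43 to 0.08 across the single comparisons of groups.

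**Figure D3:**
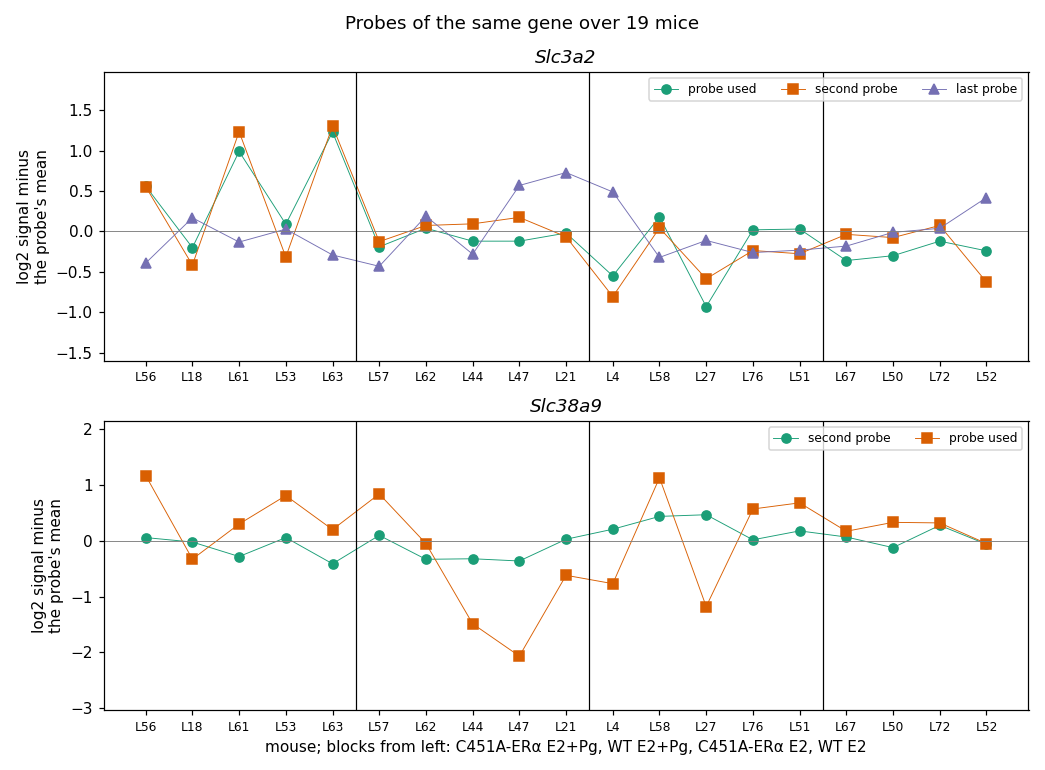
Log2 signal minus the probe's own mean (y axis) for 3 probes of Slc3a2 and 2 probes of Slc38a9 in each of the 19 mice (x axis, blocks of C451A-ERα E2+Pg, WT E2+Pg, C451A-ERα E2 and WT E2). In Slc3a2 the probe used and the second probe peak together in L61 and L63, and the last probe does not. In Slc38a9 the probe used spans 10.78 to 14.02 before centring and the second probe 7.01 to 7.89.

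The count of members called between genotypes changed with the weight given to single mice. Without L4, L27 and L18, 7 of 37 members were called higher in C451A-ERα mice on E2+Pg, against 14.5% of all genes. These were Slc7a5 (1.30), Slc38a9 (1.30), Slc1a1 (1.03), Slc7a1 (0.96), Slc6a8 (0.81), Slc3a2 (0.80) and Slc7a3 (0.75), in log2. In the mean of both treatments 8 members were called, against 12.1% of all genes. With arrays weighted by their scatter, 5 members were called under E2+Pg, against 10.7% of all genes, and 6 in the mean, against 12.0%. Slc6a6 was called lower in both weighted counts and in the mean without L4, L27 and L18. Slc7a5 and Slc38a9 were among the members called higher in all 4 of these counts. For Slc38a9 this rests on the probe used. Over all 19 mice that probe gave 1.11 under E2+Pg, and its second probe gave 0.06. The probe used averaged 12.85 (log2) and the second probe 7.42, and only the second was annotated to a RefSeq mRNA. What the probe used measures was not tested. L4, L27 and L18 were singled out by their array weights over all genes, which were known from earlier results of these data. Their part in the missing calls was not tested beyond these counts.

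Slc1a1 had the highest spread within groups of the 37 members (pooled SD 0.87), and those mice lay at its low end. It encodes EAAT3, a carrier of glutamate and cysteine. Its log2 signal was 8.87, 7.50, 9.89, 8.89 and 9.61 in C451A-ERα E2+Pg mice, against 6.09, 8.43, 5.89, 8.14 and 8.65 in C451A-ERα E2 mice. L4 and L27 were more than 2 log2 units below the other 3 E2 mice, and L18 was the lowest E2+Pg mouse. The difference was 1.51 ± 0.51, or 2.86-fold (adjusted p = 0.109), and its 2 probes went the same way in all 7 comparisons. WT mice lay between 7.77 and 8.61. Of all members, L4 and L27 were the lowest pair of their group in 10 of 37, against 28.0% of all genes, and the highest pair in 13 (35.1%), against 37.3%. Among C451A-ERα E2+Pg mice, L18 was the lowest in 13 (35.1%), against 30.9%, and the highest in 7 (18.9%), against 36.7%. L63 of that group was the highest in 13 (35.1%), against 20.3%, and the lowest in 5 (13.5%), against 24.9%. The part of L63 in the differences of that group was not tested.

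**Figure D4:**
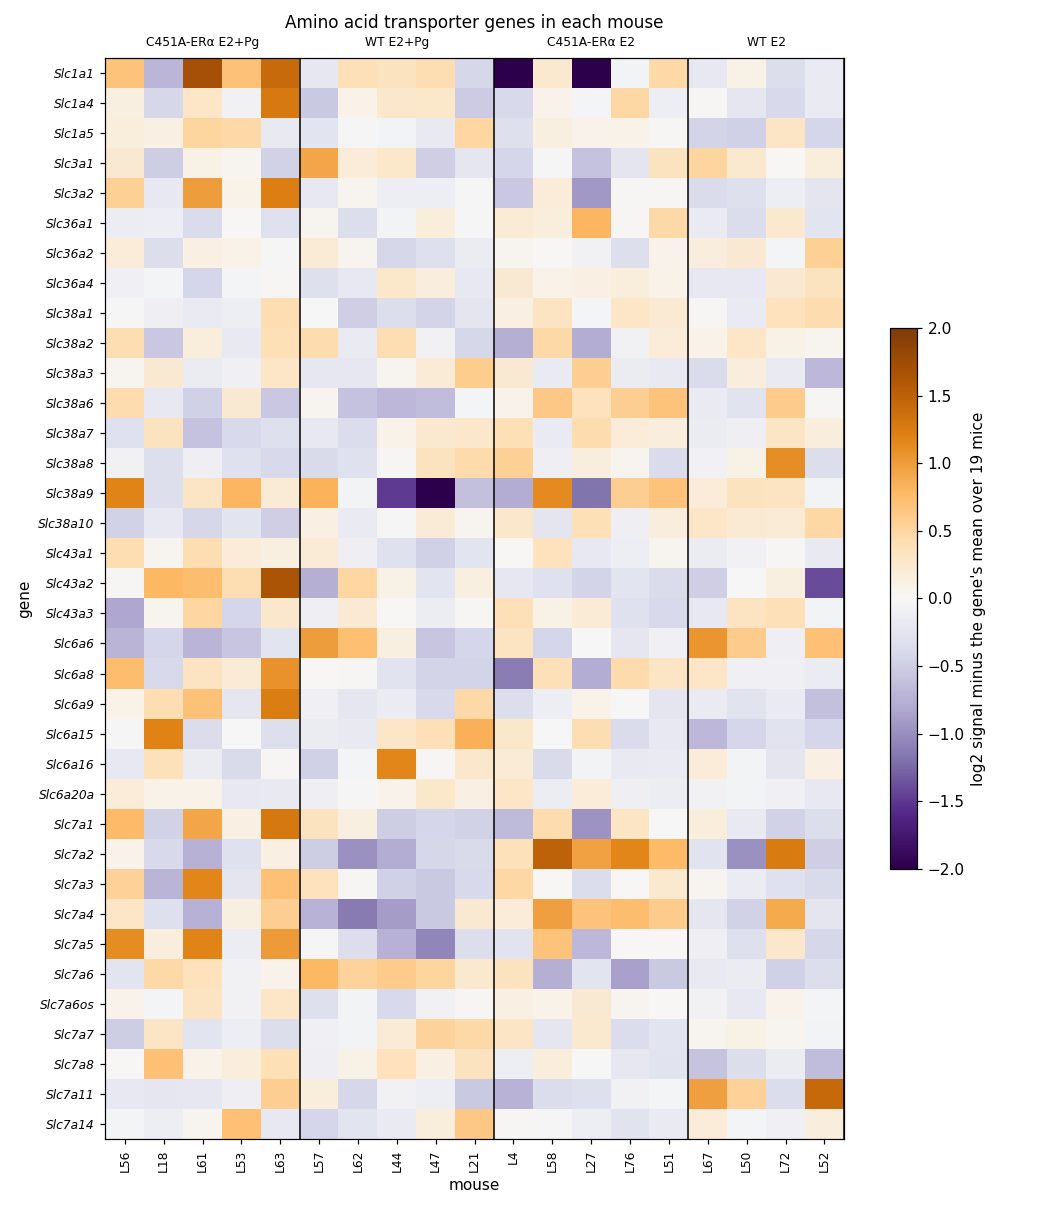
Log2 signal of each of 36 of the 37 members minus its mean over 19 mice (colour, capped at 2 on either side), with mice as columns in 4 groups and genes as rows. L4 and L27 are low for Slc1a1, Slc3a2, Slc38a2, Slc6a8 and Slc7a1, and L63 is the highest mouse for Slc3a2 (14.52), Slc43a2 (10.24) and Slc6a9 (10.50).

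Slc6a6 encodes the taurine transporter TauT. It was the member of smallest p in the genotype mean, at −0.68 ± 0.20 (adjusted p = 0.0649). The log2 values were 8.91, 9.18, 8.91, 9.05 and 9.35 in C451A-ERα E2+Pg mice, against 10.60, 10.34, 9.74, 9.05 and 9.18 in WT E2+Pg mice. It was 9.94, 9.18, 9.60, 9.38 and 9.53 in C451A-ERα E2 mice, against 10.67, 10.21, 9.51 and 10.32 in WT E2 mice. WT mice split into higher and lower values on both pellets, and the lower ones (L47, L21 and L72) overlapped with C451A-ERα mice. A second probe gave −0.61 (adjusted p = 0.0248 among probes). With it, Slc6a6 was the 1 member called in the genotype mean when probes were tested in place of genes. Slc6a6 was also called lower in that mean with the authors' value table and with the mean of its passing probes. With slide as a block it was not called (adjusted p = 0.0685). The epidermis markers were also higher in WT E2 mice, as given above, and their part in this difference was not tested.

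Slc7a11 encodes xCT, the light chain that exchanges cystine for glutamate and feeds glutathione synthesis. It was well above background on 7 of 19 arrays. Under E2 its log2 signal was 4.82, 5.20, 5.24, 5.48 and 5.51 in C451A-ERα mice, against 6.52, 6.09, 5.19 and 6.98 in WT mice, where L72 was low. The difference was −0.95 ± 0.28 (adjusted p = 0.142), and leaving out each of the 19 mice in turn gave −1.28 to −0.69 (adjusted p 0.00352 to 0.488). Of these fits, only the one without L72, the WT mouse with the low value, passed the threshold. With array weights over all mice Slc7a11 also passed it (−0.94, adjusted p = 0.0029). Epidermis markers averaged 1.42, 1.27 and 0.94 in the 3 high WT mice L67, L50 and L52, and 0.42 in L72. Their part in the result was not tested. With E2+Pg, Slc7a11 read 5.35, 5.31, 5.34, 5.45 and 6.11 in C451A-ERα mice, against 5.71, 5.13, 5.47, 5.43 and 5.01 in WT mice. It had the smallest p of the members for the genotype by progesterone interaction, 1.11 ± 0.38 (adjusted p = 0.471). No member passed that test, against 0.00% of all genes called, and 3 members (8.11%) had an unadjusted p under 0.05 against 9.38% of all genes. Slc36a1 (−0.59) and Slc7a5 (1.07) were the others.

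Slc7a2 was also the next member under E2 between genotypes. Its difference in C451A-ERα against WT mice was 1.07 ± 0.34 (adjusted p = 0.166). Leaving out each of the 19 mice in turn gave 0.78 to 1.53 (adjusted p 0.00171 to 0.53). Of these fits, only the one without L72, the WT mouse with the high value, passed the threshold. With array weights over all mice Slc7a2 also passed it (1.48, adjusted p = 0.000629). Slc43a1 encodes LAT3, a facilitative carrier of branched-chain amino acids. It read 6.06, 5.70, 6.06, 5.84 and 5.78 in C451A-ERα E2+Pg mice, against 5.85, 5.55, 5.36, 5.17 and 5.40 in WT E2+Pg mice, where 2 of 5 arrays were well above background. Its difference was 0.42 ± 0.13 (adjusted p = 0.166), higher on 5 of 5 slides.

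Of the sodium-dependent neutral carriers, Slc1a5 (ASCT2, glutamine) and Slc1a4 (ASCT1, alanine and serine) differed by 1.26-fold at most in all 7 comparisons. Slc1a5 averaged 9.34 ± 0.28 in C451A-ERα E2+Pg mice and 9.11 ± 0.29 in WT E2+Pg mice, against 9.12 ± 0.18 in C451A-ERα E2 mice and 8.86 ± 0.38 in WT E2 mice. Slc1a4 averaged 11.10 ± 0.63 in C451A-ERα E2+Pg mice and 10.77 ± 0.41 in WT E2+Pg mice, against 10.86 ± 0.32 in C451A-ERα E2 mice and 10.67 ± 0.18 in WT E2 mice. Slc38a2 (SNAT2), a carrier that amino acid shortage induces, averaged 12.21 ± 0.41 in C451A-ERα E2+Pg mice and 12.21 ± 0.37 in WT E2+Pg mice, against 11.98 ± 0.56 in C451A-ERα E2 mice and 12.30 ± 0.10 in WT E2 mice. Its smallest adjusted p over the 7 comparisons was 0.623. A second probe of Slc38a2 gave 0.46 in the genotype mean (adjusted p = 0.0215 among probes), opposite in sign to the −0.16 of the probe used. Slc38a3 (SNAT3) was well above background on 6 arrays, and Slc6a14 (ATB0,+) on 2, so it was below the filter.

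Other members were measured on the same arrays and none of them was called. Slc7a1 encodes CAT1, the widely expressed cationic carrier. Its log2 values were 12.16, 10.93, 12.33, 11.51 and 12.68 in C451A-ERα E2+Pg mice, against 11.73, 11.52, 10.89, 10.96 and 10.93 in WT E2+Pg mice, with a difference of 0.72 (adjusted p = 0.249). L18, at 10.93, lay among the WT mice, and 3 of the other 4 C451A-ERα mice were above them all. Slc7a7, which encodes the light chain y+LAT1, differed by −0.39 in the same comparison (adjusted p = 0.249), and Slc7a3, a further cationic carrier, by 0.50 (adjusted p = 0.325). Slc7a14, an orphan member of the family, differed by 0.09.

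The Slc6 family held carriers of several compounds. Slc6a9 encodes the glycine transporter GLYT1. It read 9.34, 9.67, 9.94, 9.03 and 10.50 in C451A-ERα E2+Pg mice, against 8.92, 9.14, 9.33, 9.25 and 9.01 in C451A-ERα E2 mice, a difference of 0.57 (adjusted p = 0.168) in which L53 overlapped with the E2 mice. Slc6a8, the creatine transporter, differed by 0.61 between C451A-ERα and WT mice on E2+Pg (adjusted p = 0.277). Slc6a15, a carrier of neutral amino acids, differed by 0.38 in the progesterone mean (adjusted p = 0.264). Slc6a16 and Slc6a20a differed by 0.12 and 0.07 in that mean.

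Among the Slc38 genes, Slc38a6 differed by −0.51 in the progesterone mean (adjusted p = 0.0624), Slc38a7, a lysosomal glutamine exporter, by −0.24 (adjusted p = 0.293) and Slc38a8 by −0.23 (adjusted p = 0.494). The other passing probes of Slc38a6 gave −0.20 to −0.09. Of the 8 measured Slc38 genes, 6 had a negative value in that mean, where the median of all genes was 0.01. At an unadjusted p under 0.05, 3 of the 8 were lower and 0 higher, against 21.0% of all genes. Of the 8, 0 were called, against 3.83% of all genes, and Slc38a10 passed the adjusted p but not the fold limit. Slc36a2 and Slc36a4 differed by −0.14 and −0.18, and Slc43a3, which carries purine bases, by −0.10.

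Spread within groups differed between members. The pooled SD was 0.36 in the median member, against 0.30 for all genes, and ran from 0.15 for Slc7a6os to 0.87 for Slc1a1. Slc38a9 encodes a lysosomal arginine sensor and carrier, and its probe had an SD of 0.85. The log2 values were 14.02, 12.52, 13.15, 13.66 and 13.05 in C451A-ERα E2+Pg mice, against 13.69, 12.80, 11.36, 10.78 and 12.23 in WT E2+Pg mice. Its second probe, annotated to a RefSeq mRNA, differed by 0.06 where the first gave 1.11 ± 0.49, and the probes had opposite signs in 3 of 7 comparisons. Among the 14 members with more than 1 passing probe, 4 had all probes of 1 sign in all 7 comparisons, Slc1a1, Slc6a6, Slc6a8 and Slc7a6.

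The families were measured to unlike extents. All 3 Slc43 and both Slc3 genes passed the filter, and 11 of 16 Slc7, 8 of 11 Slc38, 3 of 7 Slc1, 3 of 6 Slc36 and 7 of 21 Slc6 genes. Of the 29 below it, 10 were not well above background on any array, 14 on 1, 4 on 2 and 1 on 3. These include the glial glutamate carriers Slc1a2 and Slc1a3, the kidney and gut carriers Slc6a18, Slc6a19 and Slc7a9, and most carriers of neurotransmitters. Both genes called in the progesterone mean belong to Slc7, of whose 11 members 2 were higher and 2 lower at an unadjusted p under 0.05 in that mean, where 21.0% of all genes had such a p.

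Lists of related genes were read beside the transporters. Of 25 measured ATF4 response genes of 26, 2 were called higher and 2 lower in the progesterone mean, where 3.83% of all genes were called, with a median of 0.33 against 0.01 for all genes. Those called were Psat1 (0.74 ± 0.16, adjusted p = 0.00779), an enzyme of serine synthesis, Vldlr (0.63, adjusted p = 0.0337), a lipoprotein receptor, Stc2 (−1.66 ± 0.20, adjusted p = 0.000112), a secreted glycoprotein, and Nupr1 (−0.85, adjusted p = 0.0256), a stress-induced nuclear protein. At an unadjusted p under 0.05, 11 of the 25 were higher and 3 lower in that mean, against 21.0% of all genes. Stc2 was also called lower in C451A-ERα than WT mice in the mean of both treatments (−0.83, adjusted p = 0.0338). It was the 1 list gene called there, where 2.29% of all genes were called. The list as a whole lay the other way, with a median of 0.26 against 0.0 for all genes. At an unadjusted p under 0.05, 12 of its genes were higher and 2 lower, against 18.3% of all genes. Of 29 genes of amino acid sensing and mTORC1, Castor2 was called, lower with E2+Pg in C451A-ERα mice (−0.72, adjusted p = 0.0221). Castor2 encodes a paralogue of the arginine sensor Castor1, and 2.46% of all genes were called in that comparison. None of 20 aminoacyl-tRNA synthetase genes was called in any of the 7 comparisons, and 10 had an unadjusted p under 0.05 in the progesterone mean, all higher, where 21.0% of all genes had such a p (median 0.17 against 0.01 for all genes). Of 18 measured other carriers of amino acids and peptides, Slc25a13, the mitochondrial aspartate-glutamate carrier, was called higher with progesterone (0.61 ± 0.18, adjusted p = 0.0402). This was in the progesterone mean, where 3.83% of all genes were called. Ctns, the lysosomal cystine exporter, was called lower in C451A-ERα than WT mice in the mean of both treatments (−1.73 ± 0.35, adjusted p = 0.0204). In that mean 2.29% of all genes were called.

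Promoter windows from RefSeq (GRCm38.p6, 250 bases before the start site and 50 after) were at hand for 24 of the 37 members. The core of the C/EBP-ATF element, TGATGNAA on either strand, was found in 3 of 24 members (12.5%), against 4.51% of 27025 genes with a window. These were Slc7a11, Slc1a4 and Slc7a7. AGAACA, a half-site for the progesterone and glucocorticoid receptors, was found in 4 of 24 (16.7%), against 21.3% of genes. AGGTCA, the estrogen response element half-site, was found in 3 of 24 (12.5%), against 18.1%. The window of Slc7a11 (chr3:50443564-50443863, minus strand) held the core on both strands, and the capitals below mark the sites.
Slc7a11: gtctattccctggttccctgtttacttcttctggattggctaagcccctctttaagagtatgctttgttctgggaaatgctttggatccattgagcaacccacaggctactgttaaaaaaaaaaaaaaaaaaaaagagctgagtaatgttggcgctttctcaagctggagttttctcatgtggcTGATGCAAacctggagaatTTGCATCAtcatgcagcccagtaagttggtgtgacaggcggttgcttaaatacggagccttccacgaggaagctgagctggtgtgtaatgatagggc
A match is a run of letters and not a bound site.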

How the data were processed

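The authors hybridised the RNA of 1 mouse to each of 19 single-colour Agilent mouse arrays on 5 slides and read them with Agilent Feature Extraction (10.10.1.1 per the submitters' processing notes). The deposited scanner files hold spot intensity, and the authors' value table holds normalised log2 values. The median signal was used here without background subtraction. Outlier spots (1370) were left out, spots of 1 probe averaged, log2 taken and arrays quantile normalised. Probes that the scanner marked as well above background on at least 4 arrays were kept, and the brightest such probe stood for a gene. The 75th percentile of signal was 248.5 to 490 over a background of 21 to 29, and the number of arrays limits the precision.

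All 19 arrays were fitted in 1 model of the 4 groups with limma (3.58.1, R 4.3.3), with Benjamini-Hochberg adjustment over all 20666 genes. Calls needed an adjusted p below 0.05 and more than a 1.5-fold change. Exact permutation tests over mice were two-sided (Python 3.11.15, pandas 2.3.3, scipy 1.17.1). The comparisons share groups, so their values are not independent. Steps were tested on simulated data. Values per mouse were given for called members, for up to 3 members of smallest p in each comparison and for a fixed list of well-known carriers, and a few more (Slc1a1, Slc38a9, Slc7a1 and Slc6a9) were picked once their values were known. The values of 1 measured member are not reported here, and it is counted among the 37. Members, lists and the mice L4, L27 and L18 were chosen with earlier results of these data known. Alternatives were other signals, scalings, filters and probe choices, the authors' value table, slide as a block, array weights, only the compared groups, and leaving out mice.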

Additional observations from a re-analysis of the deposited data

Results flagged for a closer look

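Among 16 members and 4 groups each, 64 sets of values were examined for a mouse far from the rest, by the gap to its neighbour over the group's range. Chance marks about 1 in 20 sets, or 3.2 here, and 4 were found. Slc1a5 was low in the C451A-ERα E2 mouse L4, at 8.81 against 9.14 to 9.26 in the others (gap share 0.733), and high in the WT E2 mouse L72, at 9.43 against 8.64 to 8.69 (0.937). In C451A-ERα E2+Pg mice, L63 was high for Slc38a1, at 12.38 against 11.81 to 11.95 (0.754), and for Slc7a11, at 6.11 against 5.31 to 5.45 (0.825).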

How the results depend on the processing

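Counts of called members were small and moved with the processing, and no direction of a followed member turned. With array weights, 5 members were called in C451A-ERα against WT under E2. Under E2+Pg the count was 5, against 10.7% of all genes, and in the mean of both treatments 6, against 12.0%. In E2+Pg against E2 it was 4 in WT, 2 in C451A-ERα and 4 in the mean of both genotypes. Without L4, L27 and L18, the count was 7 for C451A-ERα against WT under E2+Pg, against 14.5% of all genes. It was 8 in the mean of treatments, against 12.1%, and 3 for E2+Pg against E2 in WT. For E2+Pg against E2 in WT, 1 member was called with normexp, with the authors' table and with only the compared groups. In C451A-ERα the count was 0 with the processed signal, with probes in place of genes and with slide as a block. With no filter on dim probes it was 1, and this was Slc6a4, a gene below the filter, in place of Slc7a2. In the mean of genotypes it was 1 with slide as a block (Slc7a6) and 1 with the mean of passing probes (Slc7a2). In the genotype mean it was 3 with the authors' table, and 1 with the mean of passing probes and with probes in place of genes. Leaving out 1 mouse gave 0 to 2 members under E2, E2+Pg and in WT, 0 to 3 in C451A-ERα and in the genotype mean, 1 to 3 in the progesterone mean and 0 for the interaction. Counts given here without a share of all genes describe the processing and are not read as results about the transporters. The causes were not tested. Slc7a11, Slc38a3 and Slc3a1 were near background on many arrays, which limits their values.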
